A study of Mus musculus with 20 samples.

Results

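The Toll-like receptors Tlr1 to Tlr9 and their adaptor Myd88 were read on 20 single-colour microarrays of mouse RNA. These 10 genes, out of 30342 named on the array, were taken by gene name with every probe that carries the name, which gave 14 of 39429 probes. Of the 10 genes, 7 had a single probe, while Tlr4 and Tlr8 had 2 each and Tlr7 had 3. The series asked which interferon-stimulated genes are raised in several tissues of Irgm1-/- mice.

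All mice were of C57BL/6 background and housed free of specific pathogens, and no other allele or treatment was named. Whole salivary gland came from 4 female mice labelled Irgm1-/-, all 9 weeks old, and from 4 female wild type mice of 6 to 7 weeks, so genotype and age cannot be told apart there. Whole duodenum, called small intestine below, came from 3 mice of each genotype aged 6 to 8 weeks, and isolated colonic macrophages came from the same 6 animals by the animal numbers of the deposited files. How the macrophages were isolated was not given in the sources used here. In both of these tissues the mice labelled Irgm1-/- were 2 males and 1 female and the wild type mice were 3 females. Each tissue was hybridised on 2 slides that each held both genotypes. Salivary gland arrays were the dimmest, with a 75th percentile of intensity of 134 to 1083 and 25.2% to 48.7% of probes well above background. The percentile was 2563 to 5070.2 in small intestine and 888 to 2101 in macrophages, with 52.6% to 62.1% and 57% to 74.2% of probes well above background. In small intestine the percentile was 4234.2 to 5070.2 on the arrays labelled Irgm1-/- and 2562.7 to 3529 on the wild type arrays, so array brightness ran with genotype. In salivary gland it was 159 to 1083 on the arrays labelled Irgm1-/- and 134 to 350 on the wild type arrays, which overlap.

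The probe for Irgm1, an interferon-induced GTPase of cell-autonomous defence, was brighter in the arrays labelled Irgm1-/-. The log2 difference was 2.64 ± 0.23 (SE, n = 4 and 4) in salivary gland, 1.16 ± 0.14 (n = 3 and 3) in small intestine and 0.88 ± 0.31 (n = 3 and 3) in macrophages, with adjusted p = 0.000567, 0.0546 and 0.317 in the limma fits. That goes against the label, and which part of the transcript the allele removes was not given in the sources used here, so these groups are called by their label. Every direction below is the group labelled Irgm1-/- minus wild type, as labelled.

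Toll-like receptors are membrane proteins that bind conserved parts of microbes. Tlr2, paired with Tlr1 or Tlr6, binds bacterial lipopeptides, Tlr4 binds lipopolysaccharide and Tlr5 binds flagellin, all from the cell surface. Tlr3 for double-stranded RNA, Tlr7 and Tlr8 for single-stranded RNA and its breakdown products, and Tlr9 for unmethylated CpG DNA work inside endosomes. Myd88 carries the signal of every one of these receptors but Tlr3 to NF-kB and to interferon regulatory factors. Macrophages, dendritic cells and B cells are known as strong users of the family, and the gut lining uses part of it.

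Probes are shown where different probes of one gene gave different answers, since those answers decide what can be said of Tlr4, Tlr7 and Tlr8. The first 30 bases of each are given in the array's own 5′ to 3′ order, and capitals mark the only run of alternating bases as long as 10 among the 14 member probes.
Tlr7 probe 1: TCTCTCTCTCtgatactgaactgtaccaga
Tlr7 probe 2: cataaatgaaggtctgaatttttcctaaca
Tlr7 probe 3: atgtaatgctgcttctgtatcttaaaaact
Tlr4 probe 1: ttgagaacattttggggaggaagaaaggtc
Tlr4 probe 2: gaaattgggtactcatgtttacatgtggac
Tlr8 probe 1: tgatgggaagtcacgactctgccatcataa
Tlr8 probe 2: acagttttactgctggaagacaaccagtta
Probes 1 and 2 of Tlr7 and probe 1 of Tlr4 were designed on RefSeq transcripts of those genes, as was probe 2 of Tlr8, and the other 3 on Ensembl transcripts. Probe 1 is the brightest of a gene over all arrays, and unless a probe is numbered, a value below is that of the brightest probe. Probes of Tlr2 and Myd88 were spotted 10 times per array and averaged.

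Promoter sequence is shown for Myd88 and Tlr6, the 2 members whose upstream window held the letters of an interferon-stimulated response element. RefSeq gave windows on GRCm38.p6 for 8 of the 10 genes, 10 windows in all, and the 250 bases before each listed start were searched on both strands. The element, GAAA and GAAA with any 2 bases between them, was found in 2 of the 10 windows, against 2.98% of 32851 windows of that length. The gamma-activated site, TTC and GAA with any 3 bases between them, was found in 3 of 10, against 7.02% of all, and the kappa-B site, GGGA and TTTCC with any 1 base between them, in 1 of 10, against 0.356%. Capitals mark the matches in the sequences. In the Myd88 window at chr9:119340019-119340268, minus strand, a gamma-activated site and a response element overlap and are joined in 1 run of capitals. In the Tlr6 window at chr5:64959167-64959416, minus strand, 2 overlapping matches to the response element, read on the other strand, are joined in the same way.
Myd88: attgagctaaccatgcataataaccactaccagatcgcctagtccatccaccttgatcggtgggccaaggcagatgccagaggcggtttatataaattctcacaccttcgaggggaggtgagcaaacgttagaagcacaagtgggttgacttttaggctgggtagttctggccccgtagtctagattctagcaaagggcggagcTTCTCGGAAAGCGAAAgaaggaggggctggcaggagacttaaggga
Tlr6: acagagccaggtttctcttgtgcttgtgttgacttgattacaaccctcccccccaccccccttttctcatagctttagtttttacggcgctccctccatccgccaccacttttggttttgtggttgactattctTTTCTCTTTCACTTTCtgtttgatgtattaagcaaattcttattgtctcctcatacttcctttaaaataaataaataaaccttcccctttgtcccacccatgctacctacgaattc
The other gamma-activated sites lay before Tlr1 and Tlr8, and the kappa-B site lay before Tlr3. A match is a string of letters only, and binding was not measured.

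Levels are given as log2 of the scanner's processed signal minus the array's own 75th percentile, so 0 is the array's 75th percentile and 1 is a doubling of signal. In salivary gland, where under 50% of probes were detected, the percentile was taken over probes well above background on all of that tissue's arrays. Levels of different probes cannot be ranked against each other, so each gene is compared only with itself. A gene was tested for genotype where its probe was well above background on at least 4 arrays of salivary gland or 3 of the other tissues.

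**Figure D1:**
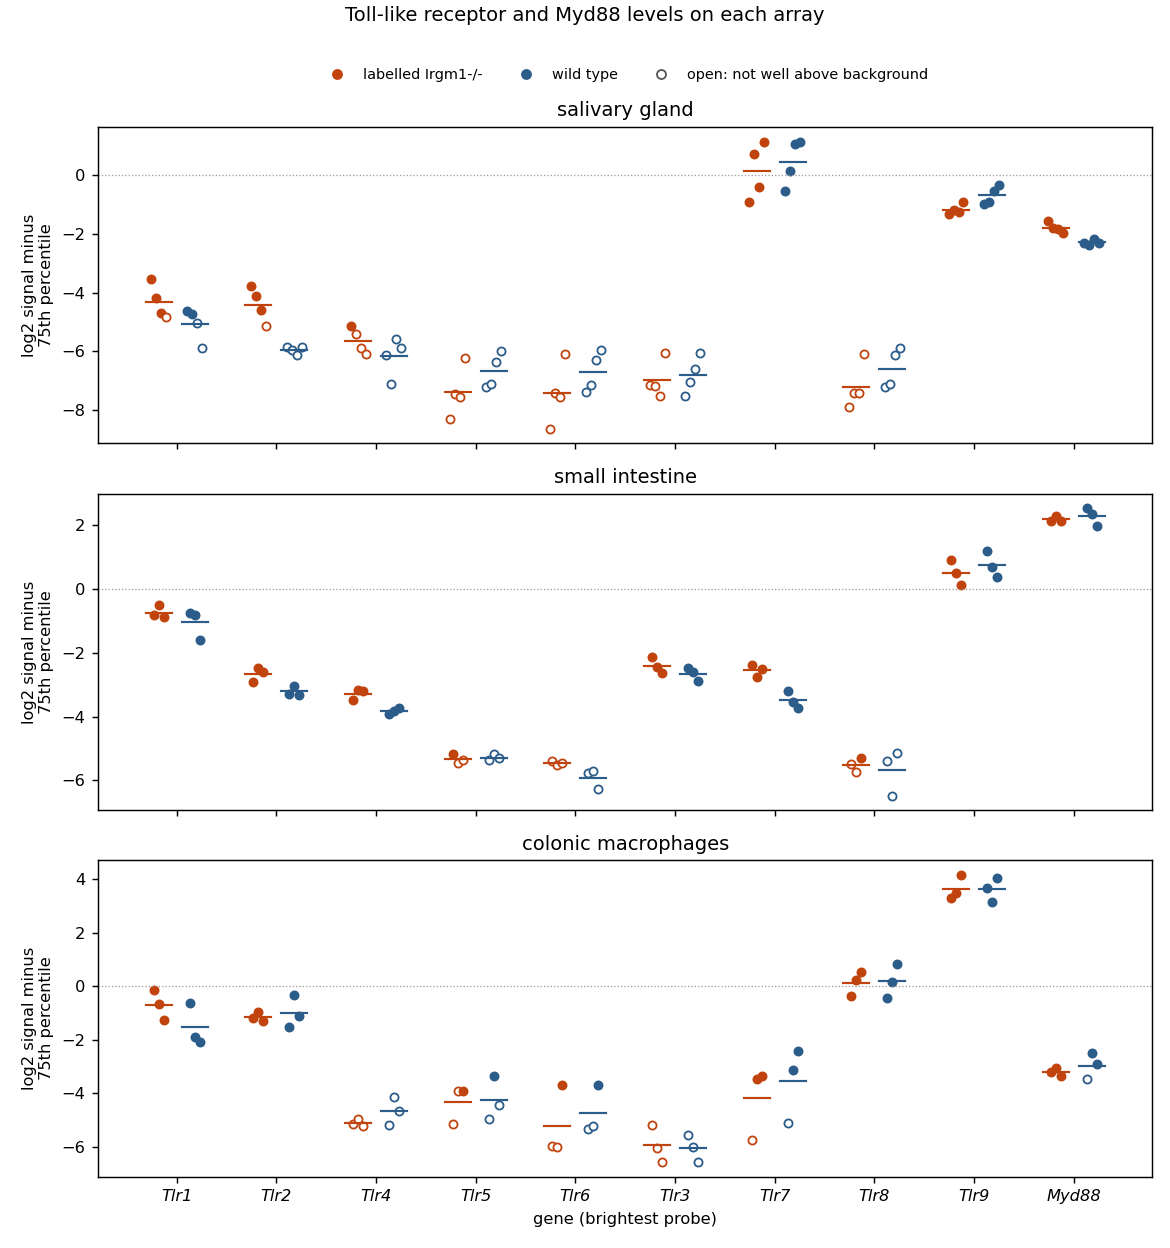
Level of each gene's brightest probe on every array (log2 signal minus the array's 75th percentile), labelled Irgm1-/- in orange and wild type in blue, with a line at each group mean and open circles where the probe was not well above background. Tlr9 and Myd88 were well above background on 20 and 19 of the 20 arrays, whereas Tlr5 and Tlr6 were so on 3 and 2.

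No member passed an adjusted p of 0.05 for genotype in any tissue. In salivary gland 0 of the 4 tested members were called, where 2.25% of 11477 genes were called, and in small intestine 0 of 7, where 0.144% of 18053 were called. In macrophages 0 of 6 were called, where 0.137% of 21174 were. At an unadjusted p under 0.05 the limma fits held 2, 3 and 0 of those members, against 2388, 1255 and 2206 of all genes tested. The tested members' median difference was 0.09, 0.31 and -0.11, beside 0.03, -0.10 and 0.10 over all genes tested. In macrophages no member separated the groups, as 15% of all genes did. With the mouse number as a block, which pairs the mice of a slide and age in the gut tissues, 1 gene was called in small intestine and 1099 in macrophages, and again no member.

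**Figure D2:**
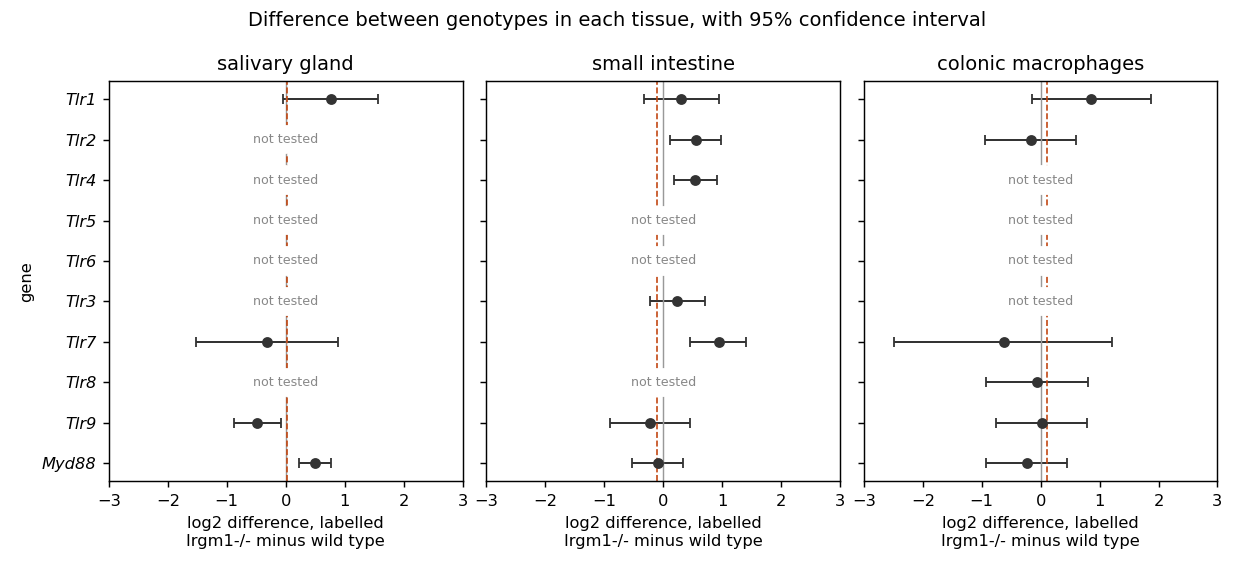
Log2 difference between the group labelled Irgm1-/- and wild type for each tested gene, with its 95% confidence interval from the limma fit, and a dashed line at the median of all genes tested in that tissue. The intervals of Myd88 in salivary gland and of Tlr2, Tlr4 and Tlr7 in small intestine lie above 0, and that of Tlr9 in salivary gland lies below 0, but none passed after adjustment over all genes.

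Myd88, the adaptor, separated the genotypes in salivary gland. Its level was -1.57, -1.79, -1.84 and -1.97 in the mice labelled Irgm1-/- and -2.30, -2.36, -2.18 and -2.31 in wild type mice. Every array of the first group was above every array of the second, as for 13.6% of all genes tested, and the replicates of each group lay close together. The difference was 0.49 ± 0.12 (SE, n = 4 and 4; 95% interval 0.23 to 0.76), 1.41-fold, with an adjusted p of 0.0685 in limma. It was 0.65 on one slide and 0.34 on the other. Leaving out the fourth mouse labelled Irgm1-/- gave 0.55 and an adjusted p of 0.0495, and over all 21 alternatives the adjusted p ran from 0.0495 to 0.998.

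In the gut tissues Myd88 differed by less than its spread. In small intestine its level was 2.13, 2.28 and 2.13 in the mice labelled Irgm1-/- and 2.52, 2.33 and 1.97 in wild type mice, a difference of -0.09 ± 0.18 (SE) with an adjusted p of 0.831 in limma and an interval of -0.53 to 0.34. In macrophages it was -3.20, -3.05 and -3.34 against -3.46, -2.50 and -2.92, a difference of -0.24 ± 0.30 with an adjusted p of 0.894 and an interval of -0.92 to 0.45. The groups overlapped in both tissues. Both intervals overlap that of salivary gland, 0.23 to 0.76. The tests of the difference between tissues, given with Tlr2 below, did not pass. On the scale of those tests the small intestine difference was 0.13.

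Tlr2, the lipopeptide receptor, was dim in salivary gland and was detected there only in mice labelled Irgm1-/-. Its level was -3.79, -4.12, -4.60 and -5.12 in the mice labelled Irgm1-/-, of which the last was not well above background. In wild type mice it was -5.86, -5.94, -6.11 and -5.85, none of them well above background. The arrays that detected Tlr2 were also the brightest of the tissue. Their 75th percentile of intensity was 373 to 1083, against 134 to 350 on the others. Detection by genotype and by array brightness therefore cannot be told apart. The groups did not overlap, and the fold between group means was at least 1.1 on this scale. The gene reached too few detected arrays to be tested in the salivary gland. Without the filter the difference was 1.53 ± 0.29 (SE) with an adjusted p of 0.113 in limma. It was 1.94 on one slide and 1.12 on the other. Of the 8 fits that left out 1 array, 5 let the gene past the filter and 3 called it, with adjusted p from 0.00348 to 0.0638. It passed there only through the arrays labelled Irgm1-/-, against a group at background, so these calls are a description. The bound of 1.1-fold has no error and belongs to this scale, and its brighter mean includes the array that was not well above background.

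In small intestine Tlr2 was detected on every array. Its level was -2.92, -2.48 and -2.61 in the mice labelled Irgm1-/- and -3.30, -3.03 and -3.32 in wild type mice, so the groups did not overlap, as for 17.9% of all genes there. The difference was 0.55 ± 0.18 (SE), 1.46-fold, with an adjusted p of 0.666 in limma. In macrophages the levels were -1.18, -0.97 and -1.29 against -1.52, -0.31 and -1.10, and the groups overlapped. That difference was -0.17 ± 0.34 with an adjusted p of 0.937.

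The genotype difference of Tlr2 was tested between tissues in 1 fit of all 20 arrays on a shared scale, with the percentile over probes well above background on every array. Salivary gland minus macrophages gave 1.77 ± 0.44 (SE; interval 0.85 to 2.70) with an adjusted p of 0.021 in limma, from genotype differences of 1.52 and -0.26. Of 5 tested members 1, Tlr2, was past the threshold in that contrast, where 6.47% of 11507 genes were called. Tlr2 entered it only through the salivary gland arrays labelled Irgm1-/-, and the wild type ones were all at background, so the contrast is a description and neither 1.52 nor 1.77 is a measured size. The call was lost (adjusted p = 0.0702 and 0.0697) without the first macrophage array labelled Irgm1-/- or the second wild type one, and with arrays set to their median (0.083). Without array 1, 2 or 3 of the salivary glands labelled Irgm1-/- the gene no longer reached enough detected arrays to be tested. In salivary gland minus small intestine, where 0.327% of genes were called, and in small intestine minus macrophages, where 1.33% were, 0 of 5 members were called, and 0 and 1 had an unadjusted p under 0.05. Tlr2 gave 0.75 ± 0.44 and 1.03 ± 0.47 in those, with adjusted p of 0.92 and 0.385 in limma. Myd88 in salivary gland minus small intestine gave 0.35 ± 0.31 with an adjusted p of 0.957. In salivary gland minus macrophages it gave 0.80 ± 0.31 with an adjusted p of 0.172, and 1.12 with an adjusted p of 0.00778 without the first wild type macrophage array. The fit of all 20 arrays took small intestine and macrophage arrays of the same animals as independent. With animal as a random block Tlr2 was again the only member past the threshold, in salivary gland minus macrophages. Small intestine minus macrophages then gave 252 genes.

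Tlr1, the partner of Tlr2, was higher on average in the mice labelled Irgm1-/- of all 3 tissues and was called in none. In salivary gland it was -3.52, -4.18, -4.71 and -4.82 against -4.64, -4.73, -5.03 and -5.90, with 3 and 2 of the 4 arrays well above background. In small intestine it was -0.82, -0.52 and -0.90 against -0.76, -0.81 and -1.60. In macrophages it was -0.15, -0.66 and -1.24 against -0.64, -1.88 and -2.09. The groups overlapped in every tissue, though each macrophage value labelled Irgm1-/- was above that of the wild type mouse of the same number. The share of all genes whose pairs all went one way was not counted. The differences were 0.77 ± 0.35, 0.31 ± 0.26 and 0.86 ± 0.44 (SE), with adjusted p of 0.257, 0.68 and 0.60 in limma.

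Tlr6, the other partner of Tlr2, and Tlr5, the flagellin receptor, were near background. Tlr6 was well above background on 2 of 20 arrays, both of them macrophages, and Tlr5 on 3, of which 2 were macrophages and 1 small intestine. Neither was tested for genotype in any tissue. In small intestine the 3 Tlr6 values labelled Irgm1-/-, from -5.52 to -5.40, lay above the wild type values of -6.26 to -5.72, but none of the 6 was well above background.

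Tlr4, the lipopolysaccharide receptor, was higher in the small intestine of the mice labelled Irgm1-/- by its first probe. The levels were -3.47, -3.18 and -3.20 against -3.93, -3.82 and -3.73 in wild type mice. The groups did not overlap, as for 17.9% of all genes there, and the difference was 0.54 ± 0.15 (SE), 1.46-fold, with an adjusted p of 0.618 in limma. Its second probe was well above background on only 1 of those 6 arrays, the first one labelled Irgm1-/-, at -2.33 against -7.64 to -6.79 on the others. In macrophages it was the second probe that was detected, on 5 of 6 arrays, with a difference of 0.52 ± 0.32 and an adjusted p of 0.671, while the first was at background on all 6. In salivary gland 1 array of 8 was well above background by the first probe and none by the second.

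Of the endosomal receptors, Tlr7 separated the genotypes in small intestine. Its first probe gave -2.39, -2.76 and -2.52 in the mice labelled Irgm1-/- and -3.19, -3.55 and -3.74 in wild type mice. The second probe gave -3.06, -3.17 and -2.92 against -3.64, -4.52 and -3.91. Both probes separated the groups, as 17.9% of all genes did there, and all 12 readings were well above background. The 2 probes were read on the same 6 arrays, so they are not separate samples. The differences were 0.94 ± 0.20 (SE; interval 0.46 to 1.41), 1.91-fold, with an adjusted p of 0.352 in limma, and 0.97 ± 0.25 with an adjusted p of 0.568 over all probes. By slide the first probe differed by 0.81 and 1, and over the 20 alternatives the difference of Tlr7 ran from 0.41 to 1.16. The third probe was at background on all 6 arrays.

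Tlr7 overlapped between the genotypes in the other tissues. In salivary gland the first probe gave -0.92, 0.74, -0.41 and 1.12 against -0.55, 0.14, 1.08 and 1.15, a difference of -0.32 ± 0.53 with an adjusted p of 0.73 in limma. In macrophages it gave -5.75, -3.46 and -3.34 against -5.10, -3.13 and -2.41, with 2 of 3 arrays of each group well above background. That difference was -0.63 ± 0.81 with an adjusted p of 0.894. The spread within each group exceeded the difference in both tissues. In macrophages each mouse labelled Irgm1-/- was below the wild type mouse of the same number. How many of all genes did the same was not counted. With the mouse number as a block no member was called.

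Tlr9, the CpG DNA receptor, was detected on all 20 arrays and was lower on average in the salivary gland of the mice labelled Irgm1-/-. The levels there were -1.33, -1.18, -1.25 and -0.91 against -0.99, -0.91, -0.53 and -0.33. The highest of the first group met the wild type range. The difference was -0.48 ± 0.17 (SE; interval -0.87 to -0.08) with an adjusted p of 0.183 in limma. Tlr9 also tended to be lower on brighter arrays of this tissue. It was -1.33 on the brightest, with a 75th percentile of 1083, and -0.33 on the dimmest, with 134. The part of array brightness in the difference was not tested. In small intestine Tlr9 was 0.90, 0.48 and 0.13 against 1.17, 0.67 and 0.36, a difference of -0.23 ± 0.28. In macrophages it was 3.30, 3.50 and 4.17 against 3.69, 3.17 and 4.04, a difference of 0.02 ± 0.34. The groups overlapped in both, with adjusted p of 0.742 and 0.994 in limma. In small intestine each mouse labelled Irgm1-/- was below the wild type mouse of the same number. The share of all genes that did so was not counted.

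Tlr3 and Tlr8 were each detected in essentially a single tissue. Tlr3, the receptor for double-stranded RNA, was well above background on all 6 small intestine arrays and on no other. It was -2.14, -2.46 and -2.64 in the mice labelled Irgm1-/- and -2.48, -2.61 and -2.88 in wild type mice, a difference of 0.24 ± 0.19 (SE) with an adjusted p of 0.676 in limma. Tlr8 was well above background on all 6 macrophage arrays and on 1 of small intestine. In macrophages it was -0.37, 0.24 and 0.52 against -0.43, 0.17 and 0.82, a difference of -0.06 ± 0.38 with an adjusted p of 0.984. The genotypes overlapped for both genes. Each small intestine value of Tlr3 labelled Irgm1-/- was above that of the wild type mouse of the same number. That pattern was not counted over all genes.

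Markers of several cell types ran with genotype in the same arrays. In salivary gland 4 of 9 tested macrophage markers rose (C1qa, C1qb, C1qc and Mrc1), by 0.89 to 1.67 log2. The summed level of the 12 macrophage markers, in multiples of the array's 75th percentile, was 8.67 to 17.6 in the mice labelled Irgm1-/- and 5.14 to 10.9 in wild type mice. The summed level of 8 monocyte and neutrophil markers was 12.3 to 24.2 against 3.95 to 5.99. Its rise came mainly from Ly6c1, with a mean level of 3.62 against 1.11. Of 4 tested, Ly6c1, Plac8 and Ly6g rose, while Csf3r did not (-0.07 ± 0.30, SE). Ccr2 and the neutrophil genes S100a8, S100a9 and Mpo were not well above background on any salivary gland array. Dendritic cell markers, 7 in all, summed to 6.93 to 14.3 against 2.71 to 3.97. Of 4 tested, Bst2 (2.54 ± 0.22, SE) and Itgax (1.94 ± 0.31) rose, while Siglech (0.08 ± 0.23) and Zbtb46 (0.04 ± 0.23) were not called. The rise of the sum came mainly from Bst2, with a mean level of 2.82 against 0.30. Bst2 is also among the interferon target genes below. Of 3 tested T and NK cell markers Gzma rose, by 2.5 (adjusted p = 0.000882). All 8 salivary acinar markers were lower, with a median of -0.73 and none called, and summed to 53.8 to 171 against 144 to 247. In small intestine the macrophage sum was 3.65 to 4.99 against 2.14 to 3.3, though 0 of 11 tested markers passed (adjusted p from 0.626 in limma), beside the separation of Tlr2, Tlr4 and Tlr7. On the macrophage arrays it was 0.967 to 2.54 against 1.55 to 5.72, with 10 of 11 tested markers lower and 0 called (adjusted p from 0.31), and fibroblast and smooth muscle markers summed to 8.54 to 24.2 against 34 to 44. All 7 B cell markers and all 8 tested T and NK cell markers were higher there, with medians of 0.91 and 0.32 and none called. Fewer cells of a type and less RNA per cell cannot be told apart in such samples, and the part of these markers in the values of Myd88 and the receptors was not tested.

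The genes around the receptors were read from lists of pathway members. In salivary gland all 10 tested interferon target genes rose, with a median of 3.65 log2 and the largest changes in Oas2 (5.08 ± 0.33, SE), Ifit3 (4.71 ± 0.33), Oas1a (4.48 ± 0.21) and Rsad2 (3.94 ± 0.20), antiviral effectors that interferon induces. These lists were drawn up with earlier results of these data known, so the direction is a description. Of 7 tested transcription factors 2 rose: Irf7, which drives interferon genes below Tlr7 and Tlr9, by 4.12 ± 0.34 (adjusted p = 0.000501 in limma), and Irf8, a factor of macrophages and dendritic cells, by 1.41 ± 0.27 (adjusted p = 0.035).

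Of 8 tested co-receptors and chaperones in salivary gland 3 rose. Unc93b1, which brings the nucleic acid receptors to endosomes, rose by 0.96 ± 0.20 (SE; adjusted p = 0.0483 in limma). Ly86, a secreted partner of a Toll-like receptor homologue on B cells and macrophages, rose by 1.39 ± 0.27 (adjusted p = 0.0379). Nrros, a membrane protein of myeloid cells, rose by 1.55 ± 0.29 (adjusted p = 0.0334). Of 8 tested brakes 2 rose, the cytokine signalling inhibitor Socs1 by 3.20 ± 0.44 and the A20-binding Tnip1 by 1.14 ± 0.20. Of 12 kinases and ubiquitin ligases Ripk1 alone rose, by 0.73 ± 0.12 (adjusted p = 0.0164). The other adaptors gave 0 of 2, with Ticam1 at -0.10 ± 0.14 and Tirap at -0.08 ± 0.17. The NF-kB target cytokines gave 0 of 3, with Il1b at -1.02 ± 0.56 and Nos2 at -0.58 ± 0.36. No gene of these lists fell past the threshold, where 2.09% of all genes were called higher and 0.157% lower.

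In small intestine 5 of 14 tested interferon target genes rose, with a median of 1.65, and the largest were Ifi44 (3.41 ± 0.17, SE), Oas2 (3.40 ± 0.24), Usp18 (2.68 ± 0.24) and Ifit2 (2.54 ± 0.16). No other list had a member past the threshold there. Among NF-kB target cytokines, of which 7 were tested, the smallest p belonged to Ccl3 at 1.69 ± 0.31 (adjusted p = 0.251 in limma) and Il10 at 1.07 ± 0.23 (adjusted p = 0.379). In macrophages 0 of 13 interferon target genes passed, with a median of 1.02 and Oas2 at 2.59 ± 0.38 (adjusted p = 0.0658). The same tissue gave 0 of 8 NF-kB target cytokines, with Ptgs2 at -2.23 ± 0.64 (adjusted p = 0.195), and 0 of 3 other Toll-like receptors, with Tlr12 at -1.56 ± 0.53 (adjusted p = 0.286).

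**Figure D3:**
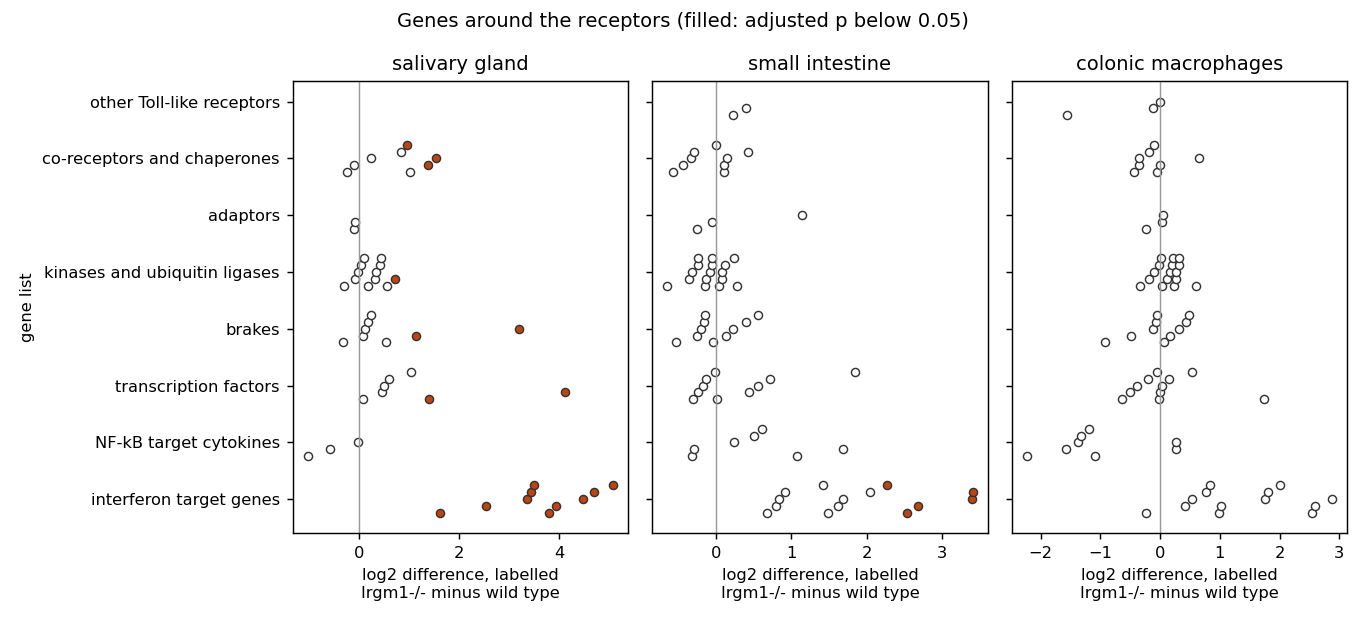
Log2 difference between the group labelled Irgm1-/- and wild type for each tested gene of 8 lists around the receptors, 1 panel per tissue, filled where the adjusted p was below 0.05. Filled points in salivary gland fall in 5 lists and in small intestine in the interferon target genes alone, and none is filled in macrophages.

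Wild type mice were then compared across tissues on the shared scale. Each tissue was hybridised on its own slides, so tissue and slide cannot be told apart. Small intestine and macrophages came from the same mice, which the fit took as independent. With animal as a random block the same members were called as below. Most genes differed: 64.3% of 16618 were called between salivary gland and small intestine, 78.9% of 20881 between macrophages and small intestine and 82.3% of 18717 between macrophages and salivary gland. Of the members, 4 of 7, 5 of 8 and 6 of 6 tested were called. The same numbers of members did not overlap between the tissues, as was so for 70.4%, 80.5% and 83.3% of all genes. These shares are near the background. The median of all genes shifted by -0.24, 1.03 and 1.29 on this scale. For Tlr1, Tlr2, Tlr8 and Tlr9 the main differences below are therefore also given relative to that median. The share of calls that were higher was 43%, 66.9% and 70.7%, but 23.2%, 33.6% and 40.1% with arrays set to their median.

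Macrophage markers did not go one way between the arrays of isolated macrophages and the whole tissues. Of 12 tested, 3 were called higher and 3 lower against small intestine, and 4 higher and 4 lower against salivary gland. Fcgr1 (4.65 and 4.34) and Cd163 (6.16 and 2.48) were higher against both, and C1qc (-2.70 and -2.57) was lower against both. Fcgr1 was at background in wild type salivary gland, and Cd163 in both whole tissues, so 4.34, 6.16 and 2.48 are not measured sizes. The marker differences and calls are not relative to the median of all genes, which shifted by 1.03 and 1.29. The summed level of the 12 markers was 1.55 to 5.72 on wild type macrophage arrays, 5.14 to 10.9 in salivary gland and 2.14 to 3.3 in small intestine. Adgre1, the F4/80 antigen, was well above background on every array, and Cd163 on 5 of 6 macrophage arrays and none of the others. Intestinal epithelial markers summed to 4.24 to 9.72 on the wild type macrophage arrays and 29.3 to 35.4 in small intestine, with Epcam, Krt20 and Fabp2 well above background on all 6 macrophage arrays. B cell markers summed to 1.17 to 2.74 on the wild type macrophage arrays and 0.408 to 0.724 in small intestine. Fibroblast and smooth muscle markers summed to 34 to 44 on the wild type macrophage arrays, 11.6 to 18.7 in small intestine and 16.6 to 18.9 in salivary gland. Of 7 tested, 4 were called higher and 1 lower against small intestine, and 6 higher and 1 lower against salivary gland. What part these cells had in the macrophage values was not tested.

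**Figure D4:**
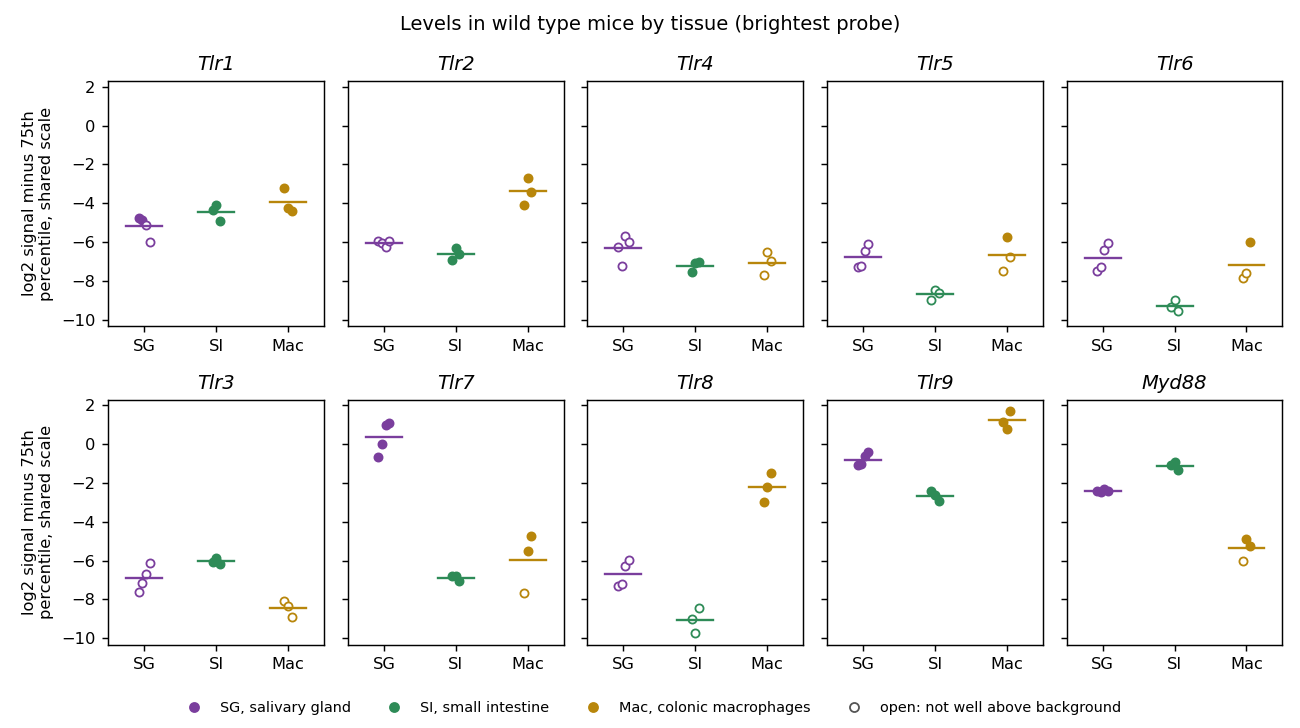
Level of each gene's brightest probe in wild type mice on the shared scale (log2 signal minus the 75th percentile over probes well above background on all 20 arrays), 4 salivary gland (SG), 3 small intestine (SI) and 3 macrophage (Mac) arrays, with lines at the means. Tlr8, Tlr9 and Tlr2 were highest and Myd88 lowest in macrophages, and open circles, which mark readings not well above background, lie between -7.62 and -5.14 in salivary gland and between -9.75 and -8.44 in small intestine.

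Tlr9 was highest in macrophages, then salivary gland, then small intestine. It was 1.14, 0.80 and 1.72 in macrophages, -1.10, -1.03, -0.64 and -0.43 in salivary gland and -2.44, -2.60 and -2.94 in small intestine, with no overlap. Macrophages exceeded small intestine by 3.88 ± 0.31 (SE; adjusted p = 4.25e-07 in limma) and salivary gland by 2.02 ± 0.29 (adjusted p = 6.08e-05), and salivary gland exceeded small intestine by 1.86 ± 0.29 (adjusted p = 0.000183). Relative to the median of all genes these were 2.85, 0.73 and 2.10, and all 3 kept their direction under the 5 scalings tried. With arrays set to their median the difference from salivary gland was 0.32 and was not called (adjusted p = 0.426).

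Tlr8 was highest in macrophages. It was -2.98, -2.21 and -1.50 there, while every wild type reading of the other tissues was at background. Macrophages exceeded small intestine by 6.84 ± 0.50 (SE; adjusted p = 2.03e-07 in limma; at least 64.2-fold) and salivary gland by 4.47 ± 0.46 (adjusted p = 5.23e-06; at least 5.36-fold). Relative to the median of all genes these were 5.81 and 3.18. Under the 5 scalings tried the differences ran from 2.58 to 6.84 and from 2.77 to 4.81. The direction held, but both bounds in fold belong to this scale only. The second probe of the gene was at background on all 3 of these macrophage arrays, so the contrast rests on the first.

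Tlr2 was higher in macrophages than in both whole tissues. It was -4.07, -2.68 and -3.42 there, -6.91, -6.30 and -6.62 in small intestine and -5.96, -6.05, -6.23 and -5.95 in salivary gland, where it was at background. Macrophages exceeded small intestine by 3.22 ± 0.34 (SE; adjusted p = 4.4e-06 in limma) and salivary gland by 2.66 ± 0.32 (adjusted p = 1.5e-05; at least 2.4-fold). Relative to the median of all genes these were 2.19 and 1.37, above 0 under all 5 scalings. The bound of 2.4-fold, 1.26 log2, is smaller than the shift of 1.29 in that median. Relative to the median there is thus no bound above 1-fold against salivary gland. The difference from small intestine was not called with arrays set to their median (0.68, adjusted p = 0.112) or with quantile normalization (1.19, adjusted p = 0.0712). Small intestine and salivary gland could not be ordered, since Tlr2 was at the brighter background of the latter.

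Myd88 had the opposite order, with small intestine highest and macrophages lowest. It was -1.09, -0.94 and -1.33 in small intestine, -2.41, -2.48, -2.29 and -2.40 in salivary gland and -6.01, -4.87 and -5.23 in macrophages, of which the first was not well above background. The 3 ranges did not overlap. Macrophages were below small intestine by -4.26 ± 0.30 (SE; adjusted p = 1.54e-07 in limma) and below salivary gland by -2.98 ± 0.28 (adjusted p = 2.37e-06), and salivary gland was below small intestine by -1.28 ± 0.28 (adjusted p = 0.00194). The direction held under all 5 scalings, also relative to the median of all genes.

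Tlr3 was higher in small intestine than in macrophages. It was -6.08, -5.88 and -6.17 there, the only wild type arrays on which it was detected. Macrophages, at background, were below it by -2.40 ± 0.37 (SE; adjusted p = 0.000106 in limma; at least 1.14-fold). Salivary gland was at its brighter background, from -7.62 to -6.14, and overlapped small intestine. The fitted difference of -0.86 ± 0.35 (adjusted p = 0.0477) was lost in 5 of 16 alternatives and gives no bound above 1-fold, so those tissues could not be ordered.

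Tlr1 was -3.20, -4.25 and -4.41 in macrophages, -4.37, -4.08 and -4.90 in small intestine and -4.75, -4.85, -5.14 and -6.00 in salivary gland. Small intestine overlapped both other tissues. Macrophages and salivary gland did not overlap and differed by 1.23 ± 0.39 (SE; adjusted p = 0.0125 in limma). Relative to the median of all genes that difference was -0.06, and it turned negative under 3 of the 5 scalings, so its direction is not settled. It also lost its call without the first wild type macrophage array (0.85, adjusted p = 0.0684).

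Tlr7 gave a different order by each probe. Probe 1 was -0.66, 0.02, 0.97 and 1.06 in wild type salivary gland, and exceeded small intestine by 7.23 ± 0.63 (SE; adjusted p = 1.97e-06 in limma). Macrophages minus salivary gland gave -6.31 ± 0.63 (adjusted p = 3.71e-06). Probe 2 was -7.21, -7.00, -6.25 and -6.16 in the same 4 mice, none well above background, and probe 3 was -7.34, -7.06, -6.32 and -5.71, also at background. Over both genotypes, probe 1 was well above background on 8 of 8 salivary gland arrays, probe 2 on 1 and probe 3 on 0. Probe 1 is the one that opens with the run of TC bases shown above, and the part of that run in its signal was not tested. By probe 2 the gene was detected in small intestine alone among wild type tissues, and by probe 3 in macrophages alone.

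Tlr4 also turned on the probe. By probe 1 it was detected in wild type small intestine (-7.54, -7.09 and -7.03) and not in macrophages, and by probe 2 on 2 of 3 wild type macrophage arrays (-5.49 and -5.37) and on none of small intestine, where it read -10.40 to -10.29. The difference between macrophages and small intestine was 0.15 by probe 1 and 4.77 by probe 2. The direction between tissues is therefore not settled for Tlr4 or Tlr7.

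**Figure D5:**
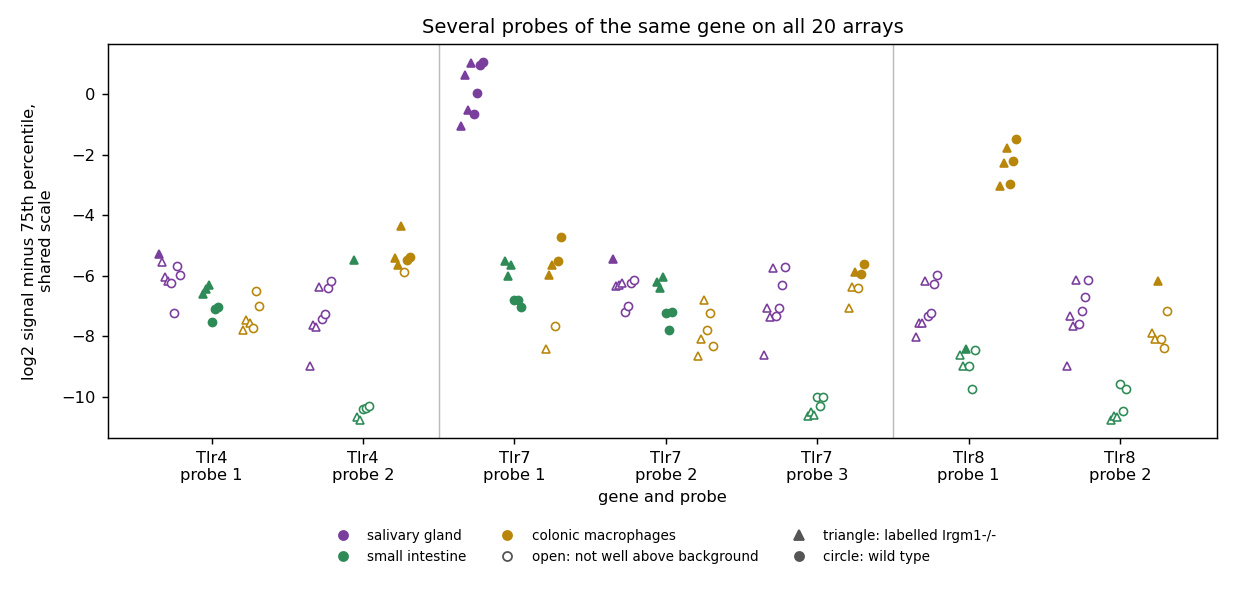
Level of each probe of Tlr4, Tlr7 and Tlr8 on all 20 arrays on the shared scale, salivary gland in purple, small intestine in green and macrophages in ochre, triangles for mice labelled Irgm1-/- and circles for wild type, open where not well above background. Probe 1 of Tlr7 is near 0 in salivary gland where probes 2 and 3 are at background, and the probes of Tlr4 and Tlr8 are detected in different sets of arrays.

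Tlr9 was the only member detected on every array, so it alone was compared with other genes over all 20. After the tissue means were taken off, the genes whose levels followed it most closely out of 5621 were Sim2, Kcnd1 and Iqcd, with Pearson's r of 0.95, 0.93 and 0.93 over 20 arrays. These values share arrays and scaling and are given as a description.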

How the data were processed

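The deposited files are 1 Agilent scanner output per array (Feature Extraction 11.5.1.1). Per the file headers they hold a processed intensity of the red channel, and per the labels total RNA carried Cy5. The authors also deposited a value table of intensity whose processing is not stated. Log2 of it had the same median on all arrays of a tissue (5.57 to 8.57 between tissues) and correlated with log2 of the scanner values by 0.953 or more on each array. It served as an alternative. Control spots and outlier flags (0.43% of spots) were left out, no spot was saturated, and spots of a probe were averaged. Log2 values were set to each array's 75th percentile, and a gene was represented by its brightest probe. Symbols came from RefSeq accessions for 27508 of 39429 probes. Groups were compared with limma 3.58.1 (R 4.3.3, data.table version 1.17.8; lmFit and eBayes, Benjamini-Hochberg adjustment over all genes tested, threshold 0.05), tested on simulated data. A fold against a group at background sets the brighter mean against, per array, the higher of the lowest detected signal and the probe's own. The number of arrays limits the precision. The labels name each array of a tissue as a different mouse.

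Mouse numbers were checked as pairs. With group means removed, same-numbered mice correlated by 0.23 to 0.33 in small intestine and 0.24 to 0.63 in macrophages and shared slide and age, so the numbers pair them there. In salivary gland the correlations ran from -0.52 to 0.44 and ages differed.

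The members and gene lists were chosen with earlier results of these data known. All 10 members were named. Of each list, up to 4 called genes were named by size of change, or up to 2 by smallest p where none was called. Alternatives covered scaling, background, filter, probe choice, blocks, sex and leaving out each array.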

Additional observations from a re-analysis of the deposited data

Results flagged for a closer look

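The genotype difference of Tlr2 in salivary gland minus that in macrophages was 1.77 on the log2 scale, past the threshold of the test of that difference. The salivary gland value is against wild type arrays at background (at least 1.1-fold between group means, without an error), so 1.77 is not a measured size. The call was lost in 3 alternatives (adjusted p = 0.0702, 0.0697 and 0.083 in limma). Among the 28 groups of 4 salivary gland values examined, 1 held an array far from the others: probe 2 of Tlr7 was -5.30 in the first mouse labelled Irgm1-/-, where the other 3 were -6.23 to -6.13. That reading was the only one well above background for this probe in the tissue, and its array was the brightest of the tissue. Chance marks about 1 in 20 such groups.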

How the results depend on the processing

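Of 1130 member values under other settings, 1044 kept direction and call, 61 reversed, 12 gained a call and 13 lost one. Members called for genotype stayed at 0 in small intestine and macrophages, and ran from 0 to 1 in salivary gland among the 4 members tested there when 1 array was left out. Tlr2, not among those 4, came past the threshold in 3 of these fits, so 2 members did without mouse 4 labelled Irgm1-/-. Signal over background limits Tlr5 and Tlr6 in every tissue, Tlr3 outside small intestine, Tlr8 outside macrophages and Tlr2 in salivary gland.

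In salivary gland 149 genes were called with arrays set to their median, 398 with normexp and quantile normalization, 143 with no filter, 117 with detection on all arrays, 619 with the slide as a block and 664 with the replicate block, and 153 to 544 when 1 array was left out. Of the calls 93% were higher, but 71.6% with normexp, 67.9% with the slide and 58.4% with the replicate block. In small intestine 1 gene was called with the replicate block and 1 with sex as a term, and 1 to 36 when 1 array was left out. In macrophages 87 were called with arrays set to their median, 14 with detection on all arrays, 1099 with the replicate block, 815 when all 20 arrays were fitted together and 11 with sex, and 16 to 46 when 1 array was left out. The block changed no member's call.

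Small intestine Myd88 turned to 0.02 (other percentile probes), 0.05 (quantile), 0.10 (normexp), 0.04 (the authors' table) and 0.13 (all 20 arrays), and ran from -0.24 to 0.03 with 1 array left out. In macrophages Tlr9 turned to -0.01 with normexp and -0.07 with all 20 arrays, Tlr8 to 0.26 with the mean of probes and 0.33 with sex, and Tlr7 to 0.21 with sex. With 1 array left out, salivary gland Tlr7 ran from -0.66 to 0.03, and in macrophages Tlr2 from -0.44 to 0.16, Tlr7 from -1.41 to 0.15, Tlr8 from -0.36 to 0.26 and Tlr9 from -0.24 to 0.23.

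For the difference between tissues, salivary gland minus macrophages gave 449 genes and 0 members with arrays set to their median, where Tlr1 turned to 0.04, and Tlr7 turned to -0.18 with normexp. With 1 array left out it gave 409 to 1090 genes, 0 to 2 members, -0.39 to 0.21 for Tlr1 and -0.49 to 1.23 for Tlr7. Salivary gland minus small intestine gave 67 genes with normexp, 22 to 52 with 1 array left out, and -0.05 to 0.45 for Tlr1. Small intestine minus macrophages gave 122 genes with all probes behind the percentile, 102 with medians, 383 with quantile, 377 with normexp, 89 with no filter and 371 with the replicate block, where Tlr9 was -0.25, -0.34, -0.19 and -0.19 under the first 4. With 1 array left out it gave 9 to 566 genes and -0.21 to 0.41 for Tlr9.

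In wild type macrophages minus small intestine, with all probes behind the percentile, medians, quantile and normexp in turn, Tlr1 was -0.48, -2.04, -1.15 and -0.79, Tlr4 was -0.83, -2.39, -1.83 and -0.99, and Tlr7 was -0.05, -1.62, -1.30 and -0.81. With medians, quantile and normexp, Tlr1 in macrophages minus salivary gland was -0.47, -0.12 and -0.32, and Tlr2 in salivary gland minus small intestine was -0.28, -0.59 and -0.04. Tlr4 there was -0.59 with quantile and -0.20 with normexp. With no filter 23986 and 25193 genes were called in salivary gland and in macrophages against small intestine. With 1 array left out, 7071 to 11079 genes were called in salivary gland minus small intestine, 8158 to 15581 genes and 3 to 6 members in macrophages minus salivary gland, and Tlr4 ran from -0.14 to 0.47 in macrophages minus small intestine. The causes were not tested.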
